A study of Bos grunniens with 18 samples.

Results

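The kinases that close the pyruvate gate of the mitochondrion, their opposing phosphatase, the carnitine enzymes that admit fatty acids and the receptor PPARD were examined in yak blood at 3 reproductive stages. The 9 names PDK1, PDK2, PDK3, PDK4, PDP1, CPT1A, CPT2, SLC25A20 and PPARD were looked up in the deposited gene table, and 7 of the 9 had a row among the 20607 genes. No row carried the name CPT1A or SLC25A20, and these are not analysed here under those names. The names were chosen from knowledge of the pathway and from the fitted stage differences of these same libraries, in which PDK4 had already been seen to be lower in estrus than in anestrus. The values of the members are therefore a description, and no p-value is given for any of them. The pathway and marker lists used below were also set with earlier results of these data known. Adjusted p-values of their genes are printed as a description of the fit and not as an independent test.

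Whole blood of adult female yaks (*Bos grunniens*) aged 4 to 8 years was sequenced as mRNA in 18 libraries, 6 from each stage. The stages were anestrus, labelled Y-A, then estrus as Y-E, and Y-P for pregnancy. The study followed 6 cows in their second calving year, so the stages were taken as repeated samples of the same animals. No strain or allele was named. Estrus was synchronized with a progesterone pessary, cloprostenol and GnRH before timed insemination, so estrus blood followed a hormone treatment. In cows followed through the stages, pregnancy blood came after this treatment and the insemination too. A natural cycle was not compared. Stage cannot be told apart from treatment or from the time of sampling.

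Pyruvate enters the citric acid cycle through the pyruvate dehydrogenase complex. The 4 pyruvate dehydrogenase kinases phosphorylate and switch off this complex, and the phosphatase PDP1 switches it on again, so that more kinase spares glucose and leaves fatty acids as the fuel. PDK4 is known as the kinase induced by fasting, glucocorticoids and fatty acid-activated PPAR receptors. Fatty acids reach beta-oxidation as carnitine esters: CPT1 forms them at the outer membrane, SLC25A20 carries them inward, and CPT2 turns them back into acyl-CoA. PPARD, a nuclear receptor activated by fatty acids, is known to raise PDK4 and CPT1A. Mature mammalian red cells have no nucleus and no mitochondria, so the mRNA of blood comes from white cells, platelets and young red cells.

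Positions are those of the deposited table for the *Bos grunniens* genome under Ensembl identifiers, whose assembly name is not given in the sources used here. PDK1 lies at chr2:123711416-123752118, PDK2 at chr19:30326104-30346918, PDK3 at chrX:130088102-130242538 and PDK4 at chr4:116835661-116847565. PDP1 lies at chr18:62679759-62687856, CPT2 at chr3:101241509-101266168 and PPARD at chr24:27087529-27178457. All 7 are annotated as protein coding. PDK3 overlaps PCYT1B on the other strand, and since the use of strand in counting is not given in the sources used here, reads of both could be mixed in the PDK3 values. A further row without a gene name, ENSBGRG00000008216 at chr29:5688859-5698480, carries the KEGG orthology K08765, the liver form of carnitine palmitoyltransferase 1. That form is CPT1A. The nearest named genes on either side are CCND1 and TBX10, between which RefSeq's yak assembly Bosgru_T2T1.0 also places CPT1A. The row spans 9622 bases with 1 transcript, and whether it covers a whole gene was not checked. The row was picked by this annotation, lies outside the 7 members and outside the rule for named genes, and is called by its identifier. CPT1A was among the names set with stage differences of these libraries known. The values of this row are therefore also a description and carry no p-value.

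The libraries held 30247267 to 48401076 counts, and 14508 genes were tested. Levels below are in CPM, counts scaled to library size with TMM factors, and each comparison is edgeR's two-sided quasi-likelihood test with Benjamini-Hochberg adjustment over all tested genes. A gene passed at an adjusted p under 0.05, and was called where the fold was also at least 2. The 6 libraries of a stage were taken from these methods to be the 6 cows. The labels do not name the cow behind each library, and SDs, SEs and p-values cover the spread between these samples. In bulk blood, fewer cells of a type and less RNA per cell cannot be told apart. Hemoglobin genes supplied 3.10% to 16.7% of a Y-A library, 0.0899% to 0.713% of 5 estrus libraries and 0.0272% to 0.376% of those from pregnancy. Y-E replicate 6 stood apart with 8.36%, and it is the only library missing from the study's supplementary tables. Its label places it in estrus, so it was kept, and results that rest on it are given with and without it.

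PDK4 was the member that moved most. In Y-A its level ran from 47.4 to 75.3 CPM with a median of 57.9. In Y-E it ran from 17.4 to 31.7 CPM with a median of 25.1, and in Y-P from 18.6 to 41.6 CPM with a median of 34.8. Every Y-A library lay above every library of the other stages, while Y-E and Y-P overlapped. The Y-A mean was 59.5 ± 11.5 CPM (SD, n = 6), beside 24.7 ± 4.68 CPM for estrus and 32.9 ± 8.97 CPM for pregnancy.

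In Y-E vs. Y-A the log2 fold change of PDK4 was −1.27 ± 0.19 (SE), a level 2.41-fold lower in estrus. The level was lower in 6 of 6 pairs of libraries with the same number. Here, and wherever 2 stages do not overlap, that pair count follows from the lack of overlap and adds nothing to it. This was the single member of 7 called, and the share of all tested genes called in this comparison was 0.0138% (2 genes), or 0.0207% (3 genes) at the adjusted p alone. The other 2 of those 3 genes were ENSBGRG00000008216 and FCGRT, the neonatal Fc receptor, which was named after its value was seen. Since the PDK4 contrast helped to choose the members, nothing is read from that count. The highest Y-E library was replicate 6 at 31.7 CPM. Without it the Y-E mean was 23.3 ± 3.54 CPM (n = 5), the log2 fold change was −1.35 ± 0.19, and 18 genes were called over the 17 libraries. A fit blocked on the replicate number called 11 genes, PDK4 among them.

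Between pregnancy and anestrus the log2 fold change of PDK4 was −0.86 ± 0.19, lower in 6 of 6 pairs and below the fold of 2. It passed the adjusted p. Between pregnancy and estrus it was 0.41 ± 0.18 and did not pass. That value passed where Y-P replicate 2, the lowest Y-P library at 18.6 CPM, was left out, and with library size as the only scaling (log2 0.56).

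PDK1, a kinase also known as a target of the hypoxia factor HIF-1, was highest in pregnancy. Its level ran from 33.8 to 51.6 CPM in Y-A (median 37.4), from 28.8 to 44.0 CPM in Y-E (median 36.1) and from 43.9 to 84.3 CPM in Y-P (median 65.4). Y-P overlapped the other stages only at its low end: 1 of its libraries lay below the highest Y-E library and 2 below the highest Y-A library, replicate 6 at 51.6 CPM. The mean was 63.7 ± 14.6 CPM in Y-P against 38.8 ± 6.58 CPM for anestrus and 36.03 ± 6.30 CPM for estrus. The log2 fold change was 0.71 ± 0.16 in Y-P vs. Y-A and 0.82 ± 0.16 in Y-P vs. Y-E, higher in 6 of 6 pairs in both, and both passed. In Y-E vs. Y-A it was −0.11 ± 0.16, which did not pass.

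PDK2, the most widely expressed of the kinases, was also highest in pregnancy, by a smaller margin. It ran from 24.3 to 36.0 CPM in Y-A (median 29.7), from 23.2 to 33.3 CPM in Y-E (median 27.3) and from 32.1 to 48.7 CPM in Y-P (median 40.9). The Y-P range overlapped both others. Against estrus the log2 fold change was 0.56 ± 0.13, higher in 6 of 6 pairs, and it passed. Against anestrus it was 0.45 ± 0.13, higher in 5 of 6 pairs, and it passed narrowly: it no longer passed in 17 of 28 other settings, among them leaving out any Y-A library, Y-E replicates 1, 4, 5 or 6, or Y-P replicates 2, 3, 4 or 5. In Y-E vs. Y-A it was −0.11 ± 0.13, which did not pass.

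PDK3, encoded on the X chromosome, had its highest levels in estrus. It ran from 77.5 to 104.8 CPM in Y-A (median 88.9), from 92.4 to 153 CPM in Y-E (median 121) and from 41.1 to 105 CPM in Y-P (median 78.0). The stages overlapped, and the lowest Y-E library was again replicate 6. From estrus to pregnancy the log2 fold change was −0.69 ± 0.18, lower in 6 of 6 pairs, and it passed. It was 0.47 ± 0.18 in Y-E vs. Y-A, higher in 5 of 6 pairs, and −0.23 ± 0.18 in Y-P vs. Y-A, and neither passed.

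**Figure D1:**
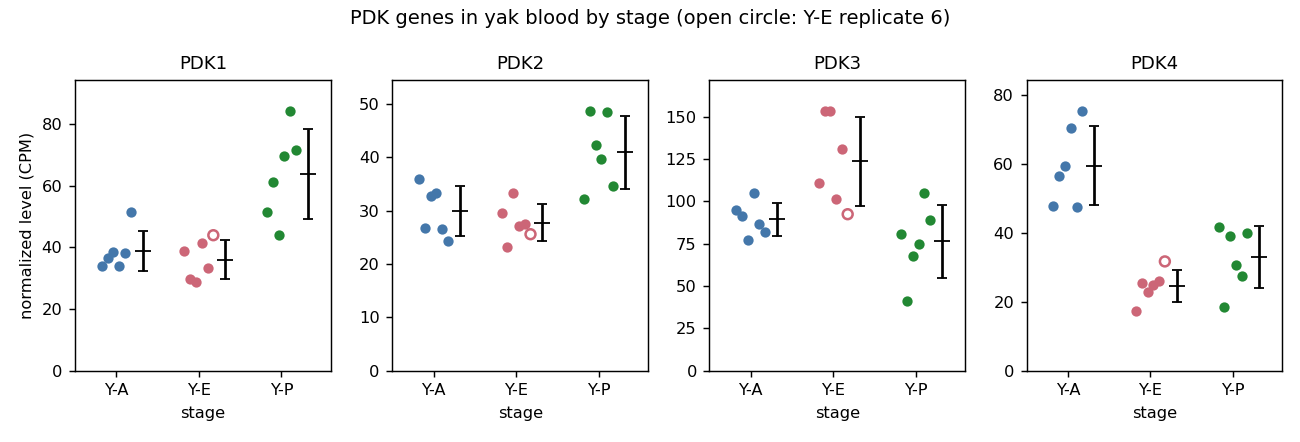
Normalized level (CPM, vertical axis) of the 4 PDK genes in each library by stage, with mean and SD as bars beside the 6 points and Y-E replicate 6 as an open circle. PDK4 points of Y-A (47.4 to 75.3 CPM) lie above all others, PDK1 and PDK2 are highest in Y-P, and PDK3 reaches 153 CPM in Y-E.

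The kinases were also compared with one another per length, on the deposited FPKM scale, since CPM does not correct for transcript length. In Y-A the mean FPKM was 33.0 ± 7.16 for PDK4, 30.0 ± 3.64 for PDK3, 24.0 ± 4.15 for PDK1 and 10.7 ± 1.67 for PDK2 (SD, n = 6). Neighbours in this order overlapped apart from PDK1 and PDK2. In Y-E the order was PDK3 (41.5 ± 7.03 FPKM), PDK1 (22.6 ± 5.00), PDK4 (13.8 ± 2.92) and PDK2 (9.98 ± 1.09), and PDK3 lay clear of the rest. In Y-P it was PDK1 (45.6 ± 11.7 FPKM), PDK3 (29.8 ± 9.35), PDK4 (21.1 ± 6.35) and PDK2 (16.8 ± 2.22), with each neighbour overlapping the next.

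As a share of the summed FPKM of the 4 kinases, PDK4 held 33.5% ± 3.67 at anestrus, 15.6% ± 3.04 at estrus and 18.8% ± 5.47 during pregnancy. PDK3 held 30.9% ± 3.72, 47.2% ± 7.65 and 25.8% ± 4.44 in the same order. PDK1 held 24.6% ± 3.27, 25.8% ± 5.74 and 40.1% ± 6.24. On this scale each stage had a different leading kinase: PDK4 had the largest share in 4 of 6 Y-A libraries and PDK3 in the other 2, PDK3 in 6 of 6 Y-E libraries, and PDK1 in 6 of 6 Y-P libraries. PDK2 held 11.0% ± 2.06, 11.4% ± 1.46 and 15.3% ± 3.86 and led in no library. The summed level was 97.7 ± 11.2 FPKM for anestrus, 87.95 ± 2.93 for estrus and 113 ± 21.8 for pregnancy. On the CPM scale the sum was 218 ± 16.7, 212 ± 19.9 and 214 ± 33.3, so that on CPM, though not on FPKM, the stage means of the sum lay within the SD of each other. PDK3 had the largest mean share at every stage on CPM, which does not correct for length. The shares do not measure kinase protein or activity.

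**Figure D2:**
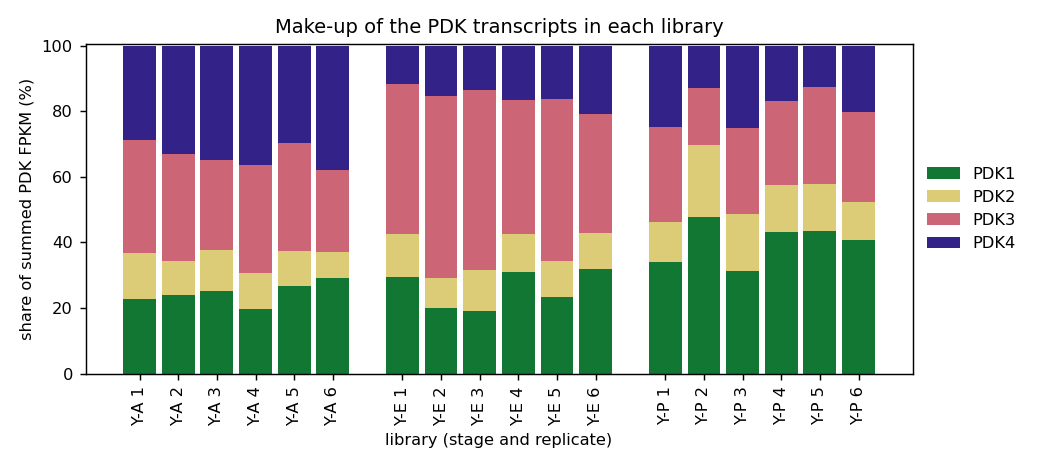
Share of each kinase in the summed FPKM of the 4 PDK genes (%, vertical axis) in each of the 18 libraries, stacked from PDK1 at the bottom to PDK4 at the top. PDK3 is the widest band in all 6 Y-E libraries and PDK1 in all 6 Y-P libraries, and the PDK4 band averages 33.5% in Y-A.

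PDP1, the catalytic subunit of the phosphatase that opposes the kinases, passed in no comparison. It ran from 15.5 to 21.0 CPM in Y-A (median 19.3), from 13.6 to 17.5 CPM in Y-E (median 15.3) and from 13.5 to 18.5 CPM in Y-P (median 16.99). All stages overlapped. The log2 fold change was −0.28 ± 0.11 in Y-E vs. Y-A, with Y-E lower in 6 of 6 pairs, −0.17 ± 0.11 in Y-P vs. Y-A and 0.12 ± 0.11 in Y-P vs. Y-E. The summed FPKM of the kinases over that of PDP1 was 12.3 ± 1.64 for anestrus, 13.5 ± 2.05 for estrus and 14.0 ± 3.81 for pregnancy, a ratio whose stage ranges overlapped.

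The row with the CPT1A orthology was lower in estrus than at both other stages. ENSBGRG00000008216 ran from 32.5 to 46.1 CPM in Y-A (median 36.1), from 16.6 to 22.8 CPM in Y-E (median 19.6) and from 31.7 to 40.7 CPM in Y-P (median 36.7). Every Y-E library lay below every library of the other stages, which overlapped each other. The log2 fold change was −0.91 ± 0.11 in Y-E vs. Y-A (1.88-fold lower, 6 of 6 pairs). In Y-P vs. Y-E it was 0.88 ± 0.11 (1.85-fold higher, 6 of 6 pairs), and both passed. Pregnancy against anestrus gave −0.02 ± 0.11, which did not pass. Both passing values stayed under the fold of 2, so this row was not called. In Y-P vs. Y-E it was called in 3 of 29 settings, up to log2 1.07 with limma on log2(FPKM + 0.1). Y-E replicate 6 had 19.5 CPM, within the range of the other Y-E libraries, and without it the values were −0.90 ± 0.12 and 0.88 ± 0.12. The fits share the Y-E libraries, so these values are not independent of each other.

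CPT2, the carnitine palmitoyltransferase of the inner membrane, passed in no comparison. It ran from 24.2 to 38.9 CPM in Y-A (median 31.7), from 29.0 to 39.1 CPM in Y-E (median 35.96) and from 29.6 to 41.4 CPM in Y-P (median 33.6). All stages overlapped. The log2 fold changes were 0.12 ± 0.12 in Y-E vs. Y-A, 0.13 ± 0.12 in Y-P vs. Y-A and 0.01 ± 0.12 in Y-P vs. Y-E.

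PPARD had its highest median in estrus, where those of PDK4 and ENSBGRG00000008216 were lowest. It ran from 32.5 to 44.0 CPM in Y-A (median 35.3), from 38.8 to 49.6 CPM in Y-E (median 46.8) and from 23.2 to 38.1 CPM in Y-P (median 33.5). Y-E and Y-P did not overlap, and Y-A overlapped both. The log2 fold change in Y-P vs. Y-E was −0.50 ± 0.12, lower in 6 of 6 pairs, and it passed. It was 0.29 ± 0.12 in Y-E vs. Y-A and −0.21 ± 0.12 in Y-P vs. Y-A, and neither passed.

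**Figure D3:**
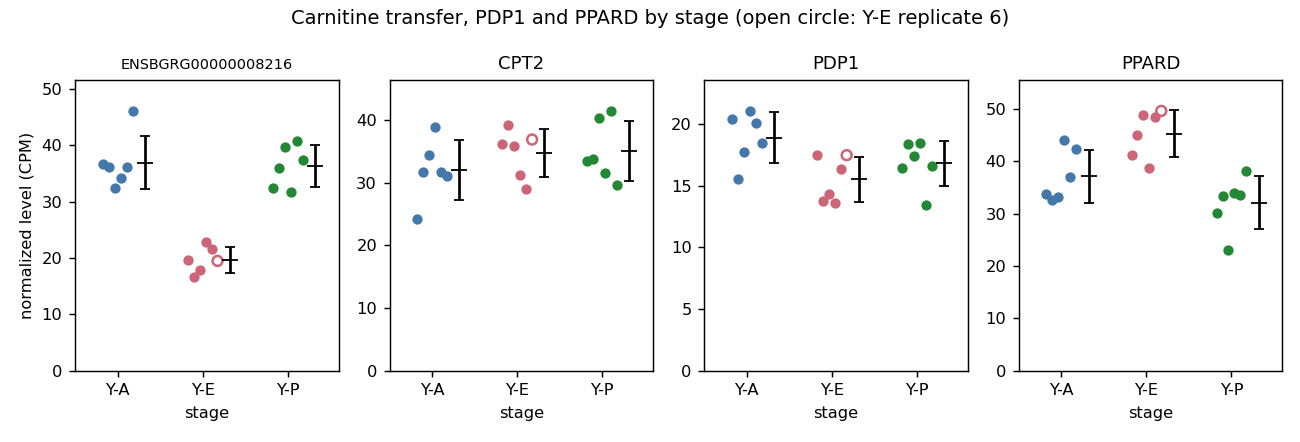
Normalized level (CPM, vertical axis) of ENSBGRG00000008216, CPT2, PDP1 and PPARD in each library by stage, with mean and SD as bars beside the 6 points and Y-E replicate 6 as an open circle. The ENSBGRG00000008216 points of Y-E (16.6 to 22.8 CPM) lie below both other stages, and the other genes overlap between stages apart from PPARD in Y-E and Y-P.

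Counted together, 1 of the 7 members passed the adjusted p in Y-E vs. Y-A, downward. Between pregnancy and anestrus 3 of 7 passed, PDK1 and PDK2 upward and PDK4 downward, and 0 of 7 were called by edgeR or by DESeq2. The share of all tested genes that passed there was 5.83%, and 1.43% were called. Between pregnancy and estrus 4 of 7 passed, PDK1 and PDK2 upward and PDK3 and PPARD downward, and 0 of 7 were called by either tool. There 14.4% of all tested genes passed and 2.67% were called. The unadjusted p was under 0.05 for 4, 3 and 5 of the 7 members in the same order of comparisons. Over all 14508 tested genes it was under 0.05 for 900, 3299 and 4246. Those contrasts were known when the names were set, so the counts are read as a description.

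The share of hemoglobin counts and the PDK4 level were both highest in Y-A. From estrus to pregnancy the median PDK4 level was higher (25.1 and 34.8 CPM) while the hemoglobin share was lowest in Y-P. At 8.36% hemoglobin, Y-E replicate 6 had 31.7 CPM of PDK4 and 19.5 CPM of ENSBGRG00000008216, below every Y-A library for both. The other Y-E libraries had 17.4 to 26.1 CPM of PDK4 and 16.6 to 22.8 CPM of ENSBGRG00000008216, so that Y-E replicate 6 was above them for PDK4 and within their range for the other. With hemoglobin genes removed before scaling, the PDK4 log2 fold change in Y-E vs. Y-A was −1.29. That removal left other transcripts of young red cells in place. The part of red cell RNA in the levels of PDK4 and ENSBGRG00000008216 was not tested.

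**Figure D4:**
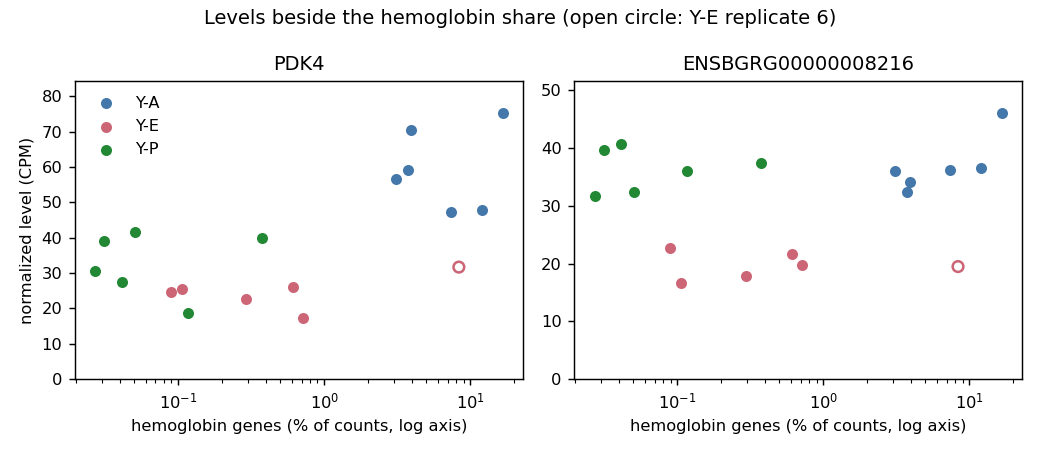
Level of PDK4 (left) and ENSBGRG00000008216 (right) in CPM on the vertical axis against the percent of counts from hemoglobin genes on a log horizontal axis, a point for each of the 18 libraries. Y-E replicate 6, the open circle at 8.36%, lies below every Y-A point in both panels.

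Of 7 marker lists for blood cell types, several moved with the stages. The summed level of the 4 reticulocyte markers with a row (of 7 listed) was 439 to 10500 CPM at anestrus, 92.1 to 4472 CPM at estrus and 39.0 to 122 CPM in pregnancy, the top Y-E value being replicate 6. HBM was at 0 counts in 1 Y-P library, and SLC4A1 in 1 Y-E and 2 Y-P libraries. Of these 4 markers 0 passed in Y-E vs. Y-A, while 4 were lower in Y-P vs. Y-A and 3 in Y-P vs. Y-E. The 6 neutrophil markers found of 7 summed to 3687 to 9321 CPM at anestrus, 4741 to 12560 CPM at estrus and 2685 to 5976 CPM in pregnancy, and 5 of 6 were lower in Y-P vs. Y-E. The 5 T cell markers found of 7 summed to 642 to 807, 618 to 811 and 711 to 1344 CPM in the same order, with 2 higher in Y-P vs. Y-A and 3 in Y-P vs. Y-E. Of 7 monocyte markers found of 8, 3 were lower in Y-P in each comparison, at sums of 503 to 935, 436 to 999 and 331 to 723 CPM. No B cell, platelet or eosinophil marker passed in any of the 3 comparisons by edgeR. B cell markers (6 of 6 found) summed to 454 to 1603, 379 to 1318 and 530 to 1803 CPM. Eosinophil markers (3 of 4) summed to 345 to 1263, 648 to 977 and 418 to 1134 CPM. Platelet markers (2 of 6, with GP1BB at 3 counts or fewer in every library) summed to 115 to 157, 98.2 to 135 and 78.1 to 128 CPM. The part of these shifts in the differences of the members and of ENSBGRG00000008216 was not tested.

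The enzymes around the switch were read from 5 lists of 76 genes, of which 63 had a row and 59 were tested. In Y-E vs. Y-A 0 of the 59 passed edgeR's adjusted p, and DESeq2 passed 2. The unadjusted p was under 0.05 for 10 of the 59, beside 900 of all 14508 tested genes. Over the 17 libraries without Y-E replicate 6 a single gene passed, UCP2, at log2 0.96 (edgeR adjusted p = 0.0472), which was named after its values were seen. The median log2 fold change of the 59 was −0.04, beside −0.01 over all tested genes. Pregnancy against anestrus passed 4 of 59, all upward, with 1 called, beside 5.83% and 1.43% of all tested genes. Of all genes that passed there, 322 were upward and 524 downward. Which list genes passed was not stable: the replicate block passed 3 upward and 3 downward (CROT, PPARA and DGAT2), and DESeq2 passed 7 upward and 3 downward. Without the block CROT, PPARA and DGAT2 were also lower (log2 −0.68, −0.64 and −0.60) but did not pass. The median was 0.07 beside 0.03 over all genes. Pregnancy against estrus passed 20 of 59, 12 upward and 8 downward, with 4 called, beside 14.4% and 2.67% of all tested genes. Of all genes that passed there, 837 were upward and 1259 downward. The median of the 59 was 0.12 beside 0.04 over all genes. A share of a list is set beside that of all genes as a description, and no test compared them. Since earlier results were known when the lists were set, the adjusted p-values of list genes below are also a description.

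The pyruvate dehydrogenase complex itself is the target of the kinases. Of 9 tested genes of pyruvate entry and the complex, 3 rose in Y-P vs. Y-E and 0 passed in either other comparison. The 3 were PDHA1, PDHB and DLAT, the E1 alpha, E1 beta and E2 subunits, which lie outside the rule for named genes and were named after their values were seen. PDHX and DLD, the other tested subunits, did not pass, at log2 −0.06 and 0.13. In Y-P vs. Y-A PDHA1 had 0.28 (edgeR adjusted p = 0.0836) and DLAT 0.40 (edgeR adjusted p = 0.0889), and the difference between the comparisons was not tested. PDHA1, the subunit that the kinases phosphorylate, had 61.3 ± 7.17 CPM in Y-E and 78.1 ± 6.28 CPM in Y-P, a log2 fold change of 0.35 ± 0.09 (edgeR adjusted p = 0.0181). It no longer passed without Y-E replicate 5 (edgeR adjusted p = 0.0515). PDHB no longer passed without Y-E replicate 3 or Y-P replicates 3 or 5, and DLAT without Y-E replicates 1, 2 or 3 or Y-P replicate 5. The list median was 0.13.

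Of the 8 tested genes of the carnitine shuttle and malonyl-CoA, 2 rose in Y-P vs. Y-E and 0 fell, at a list median of 0.35. With the replicate block CROT, the peroxisomal carnitine octanoyltransferase, passed downward in Y-P vs. Y-E (log2 −0.59, edgeR adjusted p = 0.0287, against 0.0988 without the block) and in Y-P vs. Y-A (log2 −0.74, edgeR adjusted p = 0.0197, against 0.0627). It was named after its values were seen. CPT1C, the brain-type member of the CPT1 family, rose from 4.61 ± 0.61 CPM in Y-E to 8.28 ± 1.86 CPM in Y-P, with no overlap (log2 0.84 ± 0.18, edgeR adjusted p = 0.00435). SLC22A5, the plasma membrane carnitine transporter, had 13.9 ± 2.99 CPM at anestrus, 14.4 ± 2.75 at estrus and 20.8 ± 2.59 in pregnancy. Its log2 fold change in Y-P vs. Y-A was 0.58 ± 0.16 (edgeR adjusted p = 0.0369), which no longer passed in 10 of 18 leave-one-out fits, at an adjusted p of up to 0.0759. Against estrus it was 0.53 ± 0.16 (edgeR adjusted p = 0.0291), not passing without Y-E replicates 2 or 3 or Y-P replicates 3 or 5. Without the block SLC22A5 was the single gene of this list that passed in Y-P vs. Y-A, and 0 passed in Y-E vs. Y-A with or without it.

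Beta-oxidation enzymes were the list with the most genes higher in pregnancy. Of 17 tested, 6 rose and 1 fell in Y-P vs. Y-E, 2 rose in Y-P vs. Y-A, and 0 passed in Y-E vs. Y-A. The list medians were 0.32, 0.20 and −0.06. HADHB, the thiolase subunit of the trifunctional protein, rose from 84.9 ± 5.84 CPM in Y-E to 120 ± 20.8 CPM in Y-P without overlap (log2 0.50 ± 0.11, edgeR adjusted p = 0.0052). ETFDH, which passes electrons from beta-oxidation to ubiquinone, rose from 14.8 ± 2.15 to 23.0 ± 4.39 CPM (log2 0.63 ± 0.14, edgeR adjusted p = 0.00526). ACAD9, an acyl-CoA dehydrogenase also needed for complex I assembly, was higher in Y-P (23.7 ± 3.10 CPM) than in Y-E (15.3 ± 3.88 CPM) and Y-A (15.3 ± 2.58 CPM) without overlap, at log2 0.63 in both comparisons (edgeR adjusted p = 0.0141 and 0.029). HADH, a short-chain hydroxyacyl-CoA dehydrogenase, passed in Y-P vs. Y-A at log2 0.45 ± 0.12 (edgeR adjusted p = 0.0374). In Y-P vs. Y-A ACAD9 no longer passed in 4 and HADH in 9 of the 18 leave-one-out fits.

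In fatty acid uptake, activation and storage, 1 of 15 tested genes rose and 3 fell in Y-P vs. Y-E, at a median of −0.14. DGAT2, which makes triglycerides, was at 859 ± 384 CPM in Y-E and 348 ± 77.8 CPM in Y-P (log2 −1.30 ± 0.28, edgeR adjusted p = 0.00473). LIPE, the hormone-sensitive lipase, fell from 44.6 ± 10.7 to 24.8 ± 4.39 CPM without overlap (log2 −0.85 ± 0.18, edgeR adjusted p = 0.00403). ABHD5, the coactivator of adipose triglyceride lipase, fell from 24.3 ± 4.55 to 16.6 ± 2.23 CPM (log2 −0.55 ± 0.14, edgeR adjusted p = 0.0163). CD36, a fatty acid uptake receptor, was at 0 counts in 4 of 6 Y-E libraries and at most 9 counts in the others. It had 9 to 84 counts in Y-P (edgeR adjusted p = 0.0144) and 26 to 111 counts in Y-A (edgeR adjusted p = 0.191). In Y-E vs. Y-A its log2 fold change was −4.57 ± 0.91, which did not pass. It passed there with the replicate block without Y-E replicate 6 (log2 −4.56, edgeR adjusted p = 0.0496). With limma on log2(FPKM + 0.1) it also passed (log2 −1.97, limma adjusted p = 0.0332). G0S2, an inhibitor of adipose triglyceride lipase, was the single gene called in Y-P vs. Y-A (edgeR adjusted p = 0.0443), at 2 to 32 counts at anestrus and 17 to 246 counts in pregnancy. That call was lost with the replicate block (edgeR adjusted p = 0.061) and without Y-A replicates 2, 3, 4, 5 or 6, Y-E replicates 2 or 3, or Y-P replicates 2, 4 or 6.

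Of 10 tested regulators, 4 fell and 0 rose in Y-P vs. Y-E, at a list median of −0.52, while 6 did not pass. A downward lean was also seen over all tested genes there: 1259 of the 2096 that passed fell, and 322 of the 387 called. In the other comparisons 0 passed. With the replicate block LPIN1 also passed downward in Y-P vs. Y-E (edgeR adjusted p = 0.0289) and PPARA in Y-P vs. Y-A (edgeR adjusted p = 0.0368), LPIN1 being named after its values were seen. RXRA, the partner with which PPARD binds DNA, fell from 274 ± 64.8 CPM in Y-E to 120 ± 25.6 CPM in Y-P without overlap (log2 −1.19 ± 0.20, edgeR adjusted p = 0.00107). UCP2, an uncoupling protein of the inner mitochondrial membrane, fell from 2768 ± 886 to 1237 ± 109 CPM without overlap (log2 −1.16 ± 0.19, edgeR adjusted p = 0.0008). PPARA, the PPAR receptor best known from liver, fell from 11.3 ± 3.81 to 6.26 ± 1.24 CPM (log2 −0.86 ± 0.22, edgeR adjusted p = 0.0129). FOXO3, a forkhead factor of the fasting response, fell from 143 ± 16.1 to 88.6 ± 17.4 CPM without overlap (log2 −0.69 ± 0.15, edgeR adjusted p = 0.0064). Without Y-E replicate 6 the count of the 59 genes that passed in Y-P vs. Y-E was 20, as with it, but the genes were not all the same. ETFA was lost (edgeR adjusted p = 0.0416 with it and 0.0754 without). ACADM was gained (edgeR adjusted p = 0.0807 with it and 0.016 without), and was named after its values were seen. Neutrophil markers were lower and T cell markers higher in Y-P than in Y-E, as given above, and their part in these list counts was not tested.

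**Figure D5:**
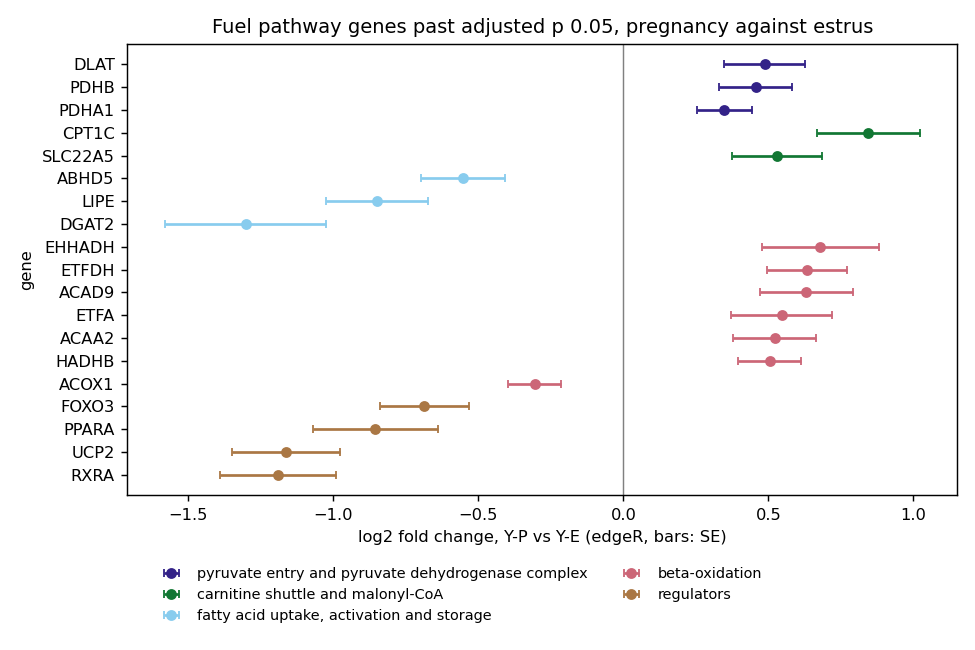
The log2 fold change of Y-P vs. Y-E from edgeR (horizontal axis, bars are the SE) for the genes of the 5 lists that passed the adjusted p, coloured by list, with CD36 left out because 4 of its Y-E libraries had 0 counts. Points right of 0 are higher in pregnancy and include PDHA1, PDHB and DLAT, and the 4 regulators lie left of 0.

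The KEGG annotation of the deposited table gave a wider view. Of 38 tested genes of fatty acid degradation, 8 passed upward and 2 downward in Y-P vs. Y-E (median log2 0.26) and 2 in each direction in Y-P vs. Y-A (median 0.17). Of 56 tested genes of PPAR signaling, 5 passed upward and 11 downward in Y-P vs. Y-E, with 5 called, and 0 upward and 4 downward in Y-P vs. Y-A, with 2 called. In Y-E vs. Y-A a single gene passed in each pathway, ENSBGRG00000008216, downward. Of all tested genes, 14.4% passed in Y-P vs. Y-E (837 upward, 1259 downward), 5.83% in Y-P vs. Y-A (322 upward, 524 downward) and 0.0207% in Y-E vs. Y-A. The shares called were 2.67%, 1.43% and 0.0138%. The called genes of PPAR signaling with the smallest adjusted p were OLR1, a receptor for oxidized LDL (log2 −1.57 ± 0.29, edgeR adjusted p = 0.00621), and NR1H3, the oxysterol receptor LXR alpha (log2 −1.01 ± 0.28, edgeR adjusted p = 0.0371), in Y-P vs. Y-A. Against estrus they were RXRA, NR1H3 (log2 −1.14 ± 0.28, edgeR adjusted p = 0.0106), FABP6, a bile acid-binding protein (log2 −1.57 ± 0.39, edgeR adjusted p = 0.0121), and CD36.

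Likeness to PDK4 was described within stages. After the stage means were subtracted from log2 CPM, the Pearson r of PDK4 over the 18 libraries was −0.583 with PDK2, 0.317 with PDK3, −0.0316 with PDK1 and 0.0968 with ENSBGRG00000008216. With the stage means left in, r with ENSBGRG00000008216 was 0.622. The genes closest to PDK4 within stages among 14507 were ENSBGRG00000004004 (r = 0.838), RO60 (0.817), MAPK9 (0.805), ENSBGRG00000022880 (0.794) and CLTC (0.787). The genes farthest from it were UBOX5 (−0.819), ENSBGRG00000017907 (−0.814) and PGAP3 (−0.807). With the stage means left in, r was 0.389, 0.58, 0.444, 0.194 and 0.348 for the closest genes in the same order. For the farthest it was −0.47, −0.388 and −0.26. These are the extremes of 14507 correlations over 18 libraries, and whether they exceed those of unrelated genes was not tested. Of the genes named, RO60 binds small noncoding RNAs, MAPK9 is a stress kinase and CLTC is the clathrin heavy chain. These correlations describe libraries that share cows, depth and cell make-up, and without Y-E replicate 6 the r of the closest gene was 0.818.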

How the data were processed

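The authors trimmed the reads with Cutadapt, aligned them with HISAT2, assembled transcripts with StringTie and estimated expression with StringTie and ballgown. The submitters' processing notes list HISAT2 2.2.1, StringTie 2.1.6 and cutadapt 1.9, and also DESeq2 and edgeR. The authors deposited FPKM values (fragments divided by exon length and by depth) and whole-number counts for each gene and library. How the counts were made is not given in the sources used here. Counts were not normalized, and 0 columns of sample values were left unused.

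Libraries were assigned to stages by column name and sample title. The tests ran under R 4.3.3 on the counts, with TMM factors, filterByExpr and the quasi-likelihood functions of edgeR 4.0.16. Stage was the model's sole term, and all 18 libraries entered a single fit. No count of any member was near the floor of 3 counts taken as detection. The scripts were tested on simulated data first. DESeq2 1.42.0, limma 3.58.1 on log2(FPKM + 1) and log2(FPKM + 0.1), other scalings and filters, and leaving out each library were alternatives. Fold changes on the log2(FPKM + pseudocount) scale understate low genes. Python 3.11.15, pandas 2.3.3, numpy 2.4.6 and matplotlib 3.10.9 did the rest.

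The members, gene lists and marker lists were chosen with earlier results of these data known. Genes of the lists were named if called, plus up to 8 others per comparison by smallest adjusted p. For KEGG lists, up to 4 called genes were named, and for likeness to PDK4 the 5 genes with the highest and the 3 with the lowest r.

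For the pairs and the replicate block, replicate numbers were treated as marking the cows, because the study followed 6 cows through the stages. The main fit had no term for the cow. The deviations from stage means of libraries with the same number correlated at 0.11 to 0.515 between anestrus and estrus, −0.0492 to 0.369 between anestrus and pregnancy, and −0.0544 to 0.4 between estrus and pregnancy. For libraries of the first stage named, the best match had the same number in 6, 4 and 3 of 6 cases, in that order.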

Additional observations from a re-analysis of the deposited data

Results flagged for a closer look

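Among 24 groups of 6 libraries (7 members and ENSBGRG00000008216 in each stage), 2 held a library far from the rest by a gap test that flags about 1 in 20 groups by chance. Both came from the same library. PDK1 in Y-A replicate 6 was at 51.6 CPM, and ENSBGRG00000008216 in Y-A replicate 6 was at 46.1 CPM, each the highest of its stage. This library also had the highest hemoglobin share, 16.7% of counts, and the highest PDK4 level of all libraries, 75.3 CPM. The 2 did not go together in every Y-A library. Y-A replicate 1 had 12.05% hemoglobin and 47.9 CPM of PDK4, and Y-A replicate 4 had 3.91% and 70.5 CPM. The part of the hemoglobin share in these values was not tested.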

How the results depend on the processing

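The log2 fold changes of the members kept their direction in the 28 other settings wherever they passed the adjusted p, and no passing value of a named gene turned sign. The call of PDK4 in Y-E vs. Y-A was made in 28 of 29 settings and lost with limma on log2(FPKM + 0.1), where 0 members passed and 0 were called. Both passing values of ENSBGRG00000008216 passed in 29 of 29. With limma on log2(FPKM + 1) or log2(FPKM + 0.1), 2 rather than 4 members passed in Y-P vs. Y-E, PDK3 and PPARD being lost. With library size as the only scaling PPARD was lost there and PDK4 passed. For pregnancy against anestrus, PDP1 turned from −0.17 to 0.04 with limma on log2(FPKM + 0.1), and for pregnancy against estrus CPT2 turned from 0.01 to −0.04 without Y-P replicate 5, neither passing in any setting. The median of all genes moved to 0.19 and 0.18 for pregnancy against anestrus and against estrus with library size alone, to 0.15 and 0.14 with limma on log2(FPKM + 1), and to 0.22 and 0.21 on log2(FPKM + 0.1).

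The genes called in Y-E vs. Y-A numbered 2, but 11 with the replicate block, 14 with DESeq2, 34 with the replicate block and without Y-E replicate 6, and 2 to 18 when a single library was left out, the 18 being without Y-E replicate 6 and 4 without Y-A replicate 1. Pregnancy against anestrus gave 208, against 126 and 324 with limma (pseudocounts 1 and 0.1) and 110 to 229 when a library was left out, with 110, 134 and 136 without Y-P replicates 2, 4 and 5. Pregnancy against estrus gave 387, against 143 with limma on log2(FPKM + 1).

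Of the pathway lists, 0 genes passed in Y-E vs. Y-A, against 2 with DESeq2 and 0 to 1 when a library was left out. A single gene, CD36, passed and was called with limma on log2(FPKM + 0.1) and with the replicate block without Y-E replicate 6. In Y-P vs. Y-A 4 passed, against 12 with library size alone, 1 without the low-count filter, 1 with only the 2 stages fitted, 10 with DESeq2, 14 and 12 with limma, and 0 to 5 when a library was left out. The 1 called gene, G0S2, fell to 0 without the filter, with 2 stages, with the replicate block and with that block without Y-E replicate 6, and was 0 to 1 when a library was left out. In Y-P vs. Y-E 20 passed (13 to 23 when a library was left out, the 13 without Y-P replicate 5), and 4 were called, against 1 and 2 with limma. The replicate block changed no call of a member. The cause of these shifts was not tested.

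On CPM in place of FPKM, which does not correct for length, the shares were 17.9%, 17.3% and 29.7% for PDK1 in Y-A, Y-E and Y-P, 13.8%, 13.1% and 19.6% for PDK2, 41.2%, 57.8% and 35.2% for PDK3, and 27.2%, 11.7% and 15.5% for PDK4, so that PDK3 had the largest mean share at each stage. With 30247267 counts or more in each library, depth limits CD36 and G0S2, and no member.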
